A study of Homo sapiens with 6 samples.

Results

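The genes described here are 10 protein tyrosine phosphatases of myeloid cells, 4 of the receptor type (PTPRJ, PTPRC, PTPRE and PTPRA) and 6 of the non-receptor type (PTPN1, PTPN2, PTPN6, PTPN11, PTPN12 and PTPN22). They were named as a family around PTPRJ, and each was found in the count table through its NCBI gene identifier, 10 of the 26347 genes listed. RNA was sequenced from THP-1, an established human monocytic leukaemia line grown in RPMI with 10% FBS. Cells of 1 group had received a miR-125a-5p mimic, a synthetic copy of that microRNA, and cells of the other a negative control microRNA mimic, with RNA taken 24 h after transfection and 3 libraries per group. Although the series is titled for macrophages, its samples are labelled as monocytic cells with no differentiation step. No label says whether the libraries came from separate cultures, so the errors below rest on spread between libraries, which may be technical. An SD (standard deviation) is that of the gene's own libraries. An SE (standard error) comes from a model that shares its estimate of spread among genes.

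Protein tyrosine phosphatases remove the phosphate that kinases place on tyrosines, by way of a cysteine in the active site. In leukocytes they act in both directions. CD45, the product of PTPRC, and CD148, the product of PTPRJ, can switch SRC-family kinases on by removing an inhibitory phosphate from the kinase tail, whereas SHP-1, the product of PTPN6, is drawn to inhibitory receptors and dampens signals from activating ones. The 10 genes were chosen by the function of their proteins and with their fold changes in this comparison already known, that of PTPRJ foremost. Those fold changes are therefore given as a description, with no p-value. Calls among the members are counted beside the share of all genes called, and again by setting in the closing section. They support nothing.

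The mimic acts through its seed, bases 2 to 8, which pairs with complementary letters in messenger RNAs. The mature sequence (RefSeq, GRCh38.p14) is shown because it defines the letters searched for, with the seed in capitals.
hsa-miR-125a-5p: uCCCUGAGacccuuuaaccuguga
The matches searched on the transcript strand were the 8mer CTCAGGGA, the 7mer-m8 CTCAGGG, the 7mer-A1 TCAGGGA and the 6mer TCAGGG. The 8mer holds both 7mers, and each 7mer holds the 6mer. Each gene was put under the first match it held, in the order given. The search used the longest 3′ untranslated region (3′ UTR) of each gene in GENCODE release 29 on GRCh38, a later build than the hg19 named for the counts. In PTPRJ, on the plus strand of chromosome 11 (chr11:47980558-48170841), it found a 7mer-A1 at chr11:48169411-48169417 and a 7mer-m8 at chr11:48169430-48169436. Both are in exon 25 of 25, and 12 bases lie between them. PTPRJ also had a 6mer at chr11:48168029-48168034, held by 2 of its 4 annotated 3′ UTRs. The pair is shown with the matches of PTPN1 and PTPN12, the other members with at least 7 matching bases in the 3′ UTR. Each match is in capitals.
PTPRJ 7mer-A1: gtaggtgtgaaTCAGGGAagccacattgt
PTPRJ 7mer-m8: gccacattgtcCTCAGGGtgctgtatgaa
PTPN1 7mer-m8: ggggggagtgtCTCAGGGtcttctgtgac
PTPN12 7mer-A1: tTCAGGGAgctagaagaca
The PTPN1 match is at chr20:50584645-50584651, in exon 10 of 10. The PTPN12 match is at chr7:77639282-77639288, in exon 18 of 18, and begins at base 2 of the 3′ UTR. In all, 3 of 10 members had a 7- or 8-base match, against 24.3% of the 12785 tested genes that could be searched. No member had an 8mer there, against 6.01% of those genes. PTPRE, PTPN2 and PTPN11 had only a 6mer, and PTPRC, PTPRA, PTPN6 and PTPN22 had none of these letters.

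The pair of PTPRJ matches lies in the longest of its annotated 3′ UTRs, of 3479 bases, and in 1 of the 4 annotated. The matches of PTPN1 and PTPN12 are in 2 of 2 annotated 3′ UTRs each. Counts per gene do not show which 3′ end the cells used. In the coding sequence of the same transcripts, 5 of 10 members had a 7- or 8-base match, against 22.9% of the searched genes, and PTPRJ had none of these letters. PTPRC held the only 8mer among the members, at chr1:198750523-198750530 in exon 29 of 33, shown because CD45 was the most abundant member.
PTPRC 8mer, coding: gatgattgctgCTCAGGGAccactgaagga

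The libraries held 8256149 to 10257791 counts. The 10 monocytic markers listed for THP-1, among them CD33, ITGAM, CD68 and CSF1R, were all tested and summed to 3362 to 3431 CPM (here counts per library total, scaled to 1e6) in miR-125a-5p libraries and 3372 to 3728 CPM in control libraries, although MPO stood at only 0.594 to 4.87 CPM. T cell markers summed to 2.30 to 3.31 CPM in miR-125a-5p libraries and 2.10 to 4.68 CPM in control libraries, with CD3E at 0. On the same scale NK cell markers summed to 23.5 to 25.3 CPM in miR-125a-5p libraries and 17.4 to 26.5 CPM in control libraries, most of it NKG7, a gene of cytotoxic granules, at 15.3 to 22.9 CPM over all 6 libraries. B cell markers summed to 2.14 to 5.09 CPM in miR-125a-5p libraries and 3.44 to 4.54 CPM in control libraries. Epithelial markers (KRT18 at 0) reached at most 0.121 CPM in miR-125a-5p libraries and 1.07 CPM in control libraries, and fibroblast markers at most 1.99 CPM in miR-125a-5p libraries and 3.09 CPM in control libraries. In a principal component analysis of log2 CPM, control library 1 lay at -38.2 on component 1 and the other 5 libraries between 1.14 and 16.3.

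PTPRJ encodes CD148, also called DEP-1, a transmembrane phosphatase with fibronectin type III repeats outside the cell and a single catalytic domain inside. It had 206, 196 and 220 CPM in miR-125a-5p libraries 1, 2 and 3, against 305, 286 and 264 CPM in control libraries 1, 2 and 3. These and all later CPM are adjusted by edgeR's trimmed mean of M-values (TMM). Every miR-125a-5p library was below every control library, and the highest of the 6 values was that of control library 1. The means were 207 ± 11.9 CPM in miR-125a-5p libraries and 285 ± 21.0 CPM in control libraries (SD, n = 3 each). The log2 fold change was -0.46 (SE 0.09), a level 27.3% lower, and it rested on 1751 to 3113 reads per library. With 1 library left out it lay between -0.51 and -0.41, and the smallest change was the one without control library 1. In these bulk samples, fewer cells of a kind and less RNA per cell cannot be told apart.

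PTPRC encodes CD45, the abundant surface phosphatase of all nucleated blood cells. It had 638, 611 and 553 CPM in miR-125a-5p libraries, against 644, 628 and 667 CPM in control libraries. The groups overlapped, since miR-125a-5p library 1 lay above control library 2. The log2 fold change was -0.11 (SE 0.09), and leaving out miR-125a-5p library 3, the lowest, brought it to -0.05.

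PTPRA and PTPRE are close relatives with short extracellular parts, and PTPRA is a widely expressed activator of SRC-family kinases. PTPRA had 53.6, 52.0 and 49.2 CPM in miR-125a-5p libraries, against 57.4, 58.6 and 55.6 CPM in control libraries. The groups did not overlap, and the log2 fold change was -0.15 (SE 0.11). In GENCODE the exons of PTPRA share 558 bases with VPS16, a gene on the same strand, so some reads may belong to either. PTPRE, which is also made in blood cells as a cytosolic form, had 109, 95.3 and 94.1 CPM in miR-125a-5p libraries, against 101, 92.5 and 96.5 CPM in control libraries. These groups overlapped, with a log2 fold change of 0.04 (SE 0.10) that was -0.03 without miR-125a-5p library 1.

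**Figure D1:**
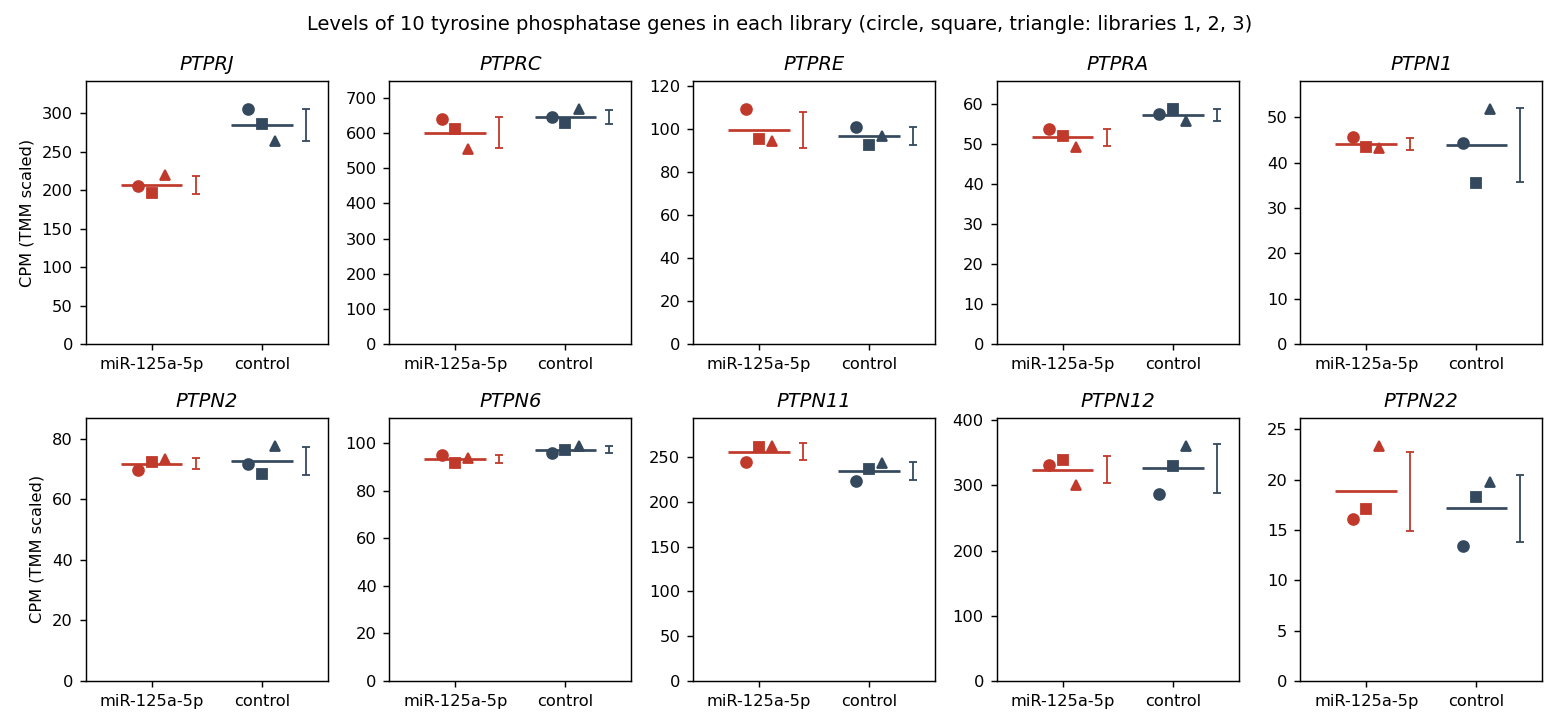
Level of each of the 10 genes by library in TMM-adjusted CPM, from 0 on each axis, miR-125a-5p mimic left and negative control mimic right. Symbols are libraries 1, 2 and 3, the horizontal line is the mean and the bar its SD. PTPRJ lay between 196 and 220 CPM in miR-125a-5p libraries and between 264 and 305 CPM in control libraries.

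PTPN6 and PTPN11 encode SHP-1 and SHP-2, the phosphatases with tandem SH2 domains. SHP-1 is recruited by inhibitory receptors, while SHP-2 is needed for full RAS and ERK signalling by many growth factor and cytokine receptors. PTPN11 had 245, 261 and 262 CPM in miR-125a-5p libraries, against 223, 236 and 244 CPM in control libraries. Here every miR-125a-5p library was above every control library, though the lowest of the first and the highest of the second were close, with a log2 fold change of 0.13 (SE 0.09). The PTPN11 exons share 111 bases with RPL6, a ribosomal protein gene on the other strand. PTPN6 had 95.0, 91.8 and 93.9 CPM in miR-125a-5p libraries, against 96.1, 97.3 and 99.0 CPM in control libraries. The groups did not overlap, though the log2 fold change was only -0.06 (SE 0.10).

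PTPN1 and PTPN2 encode PTP1B and TC-PTP, near relatives that act on Janus kinases, with PTP1B, anchored to the endoplasmic reticulum, also a brake on the insulin receptor. PTPN1 had 45.7, 43.5 and 43.4 CPM in miR-125a-5p libraries, against 44.3, 35.6 and 51.8 CPM in control libraries. The miR-125a-5p values fell inside the control range, and the log2 fold change of 0.01 (SE 0.13) ranged from -0.12 to 0.14 with 1 library left out. The PTPN1 exons share 138 bases with AL133230.1, a gene on the other strand. PTPN2 had 69.6, 72.4 and 73.2 CPM in miR-125a-5p libraries, against 71.8, 68.3 and 77.7 CPM in control libraries, again inside the control range. Its log2 fold change was -0.02 (SE 0.11), and 2 pseudogenes carry its name in GENCODE.

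PTPN12 encodes PTP-PEST, a cytosolic phosphatase of adhesion proteins such as BCAR1 and paxillin, and PTPN22 encodes LYP, which works with the kinase CSK to restrain antigen receptor signals in lymphocytes. PTPN12 had 332, 340 and 301 CPM in miR-125a-5p libraries, against 287, 330 and 361 CPM in control libraries, with a log2 fold change of -0.01 (SE 0.10) that ranged from -0.09, without control library 1, to 0.07, without control library 3. The control values of PTPN12 spread over the whole range of the miR-125a-5p ones. PTPN22 was the least abundant member, at 16.1, 17.1 and 23.4 CPM in miR-125a-5p libraries and 13.4, 18.2 and 19.8 CPM in control libraries. Its groups overlapped, its counts were 137 to 195 per library, and its log2 fold change was 0.14 (SE 0.19). That value was -0.02 without control library 1, -0.05 without miR-125a-5p library 3 and 0.25 without control library 3, so its sign rested on single libraries. The PTPN22 exons share 105 bases with AL137856.1, a gene on the other strand.

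None of the 10 was called by edgeR's quasi-likelihood test, at a Benjamini-Hochberg adjusted p under 0.05 over the 14731 genes tested, where 0.0272% of all genes were called, 4 lower and 0 higher. DESeq2 called 1 member, PTPRJ. At an unadjusted p under 0.05 by edgeR 1 member was lower and 0 were higher, against 3.22% and 2.69% of all genes. Groups that did not overlap were found in PTPRJ, PTPRA and PTPN6, lower, against 5.9% of all genes, and in PTPN11, higher, against 5.31%. Since the members were chosen with this comparison known, nothing is read from these counts, and the call of PTPRJ by DESeq2 rests on the value it was chosen by. Of the 10 log2 fold changes 6 were negative, the median was -0.01, and the median of all genes tested was 0.0011. The range was -0.46 to 0.14, and after PTPRJ the next lowest was PTPRA at -0.15. Without control library 1 the log2 fold changes were -0.41 for PTPRJ, -0.15 for PTPRA, -0.11 for PTPRC, -0.09 for PTPN12, -0.07 for PTPN6 and 0.09 for PTPN11, and the other 4 lay between -0.03 and 0.07.

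**Figure D2:**
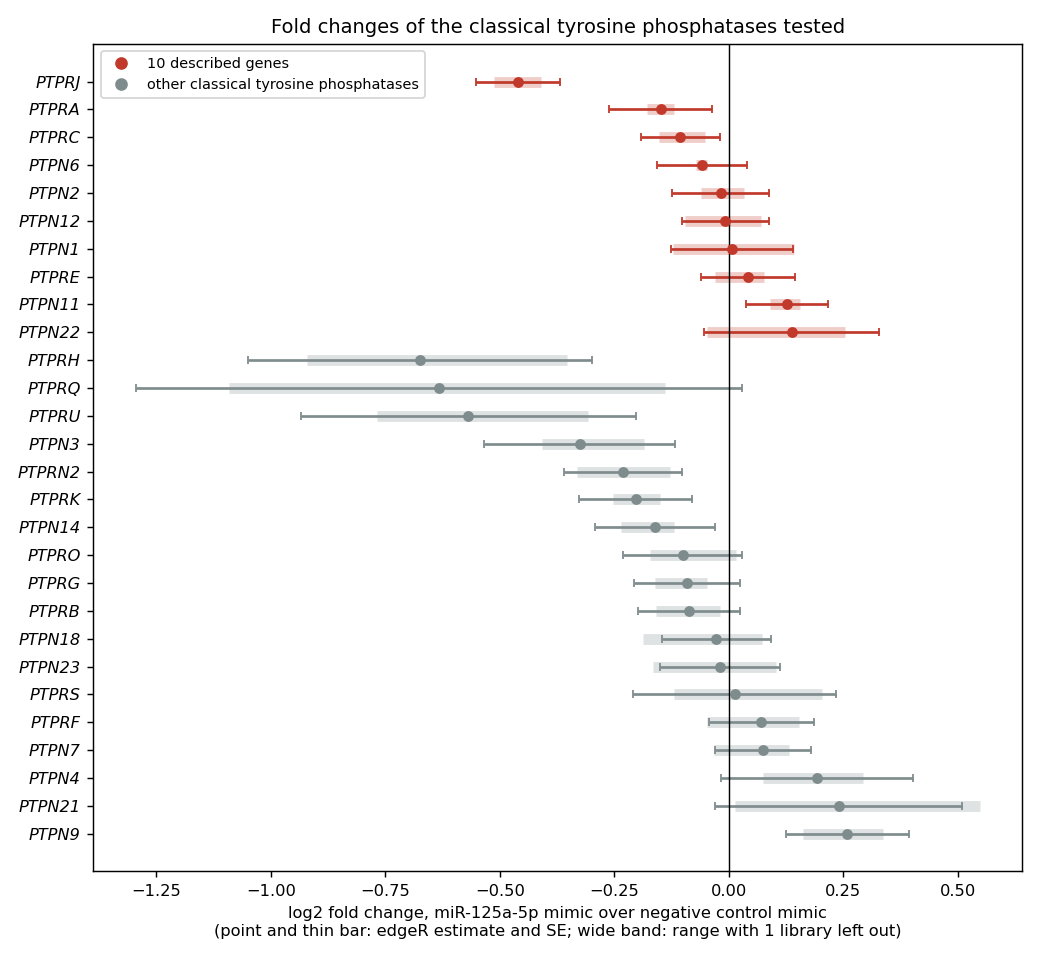
log2 fold change of each tested classical tyrosine phosphatase, miR-125a-5p mimic over negative control mimic, with the edgeR SE as a thin bar and the range with 1 library left out as a wide band. Among the 10 described genes PTPRJ is at -0.46 and the others lie between -0.15 and 0.14. The 3 other genes at or below -0.57 have wide bars.

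A ratio between genes in the same library does not depend on how the libraries are scaled. The ratio of PTPRJ reads to PTPN11 reads was 0.840, 0.752 and 0.837 in miR-125a-5p libraries, against 1.37, 1.21 and 1.08 in control libraries. PTPRJ thus had fewer reads than PTPN11 in each miR-125a-5p library and more in each control library. Against PTPRC the ratio was 0.322, 0.321 and 0.397 in miR-125a-5p libraries, against 0.474, 0.455 and 0.395 in control libraries. These overlapped, since library 3 of each group had nearly the same ratio. Against 8 of the 9 other members, PTPRC being the exception, every miR-125a-5p library had a lower ratio than every control library. Against PTPN12 and PTPN1 the groups nearly met, at 0.729 and 5.07 in miR-125a-5p library 3 and 0.731 and 5.09 in control library 3. All 9 ratios share the PTPRJ counts, so they are not separate observations. PTPRJ was chosen with its value known, and no share of all genes stands beside this count, so nothing is read from it.

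**Figure D3:**
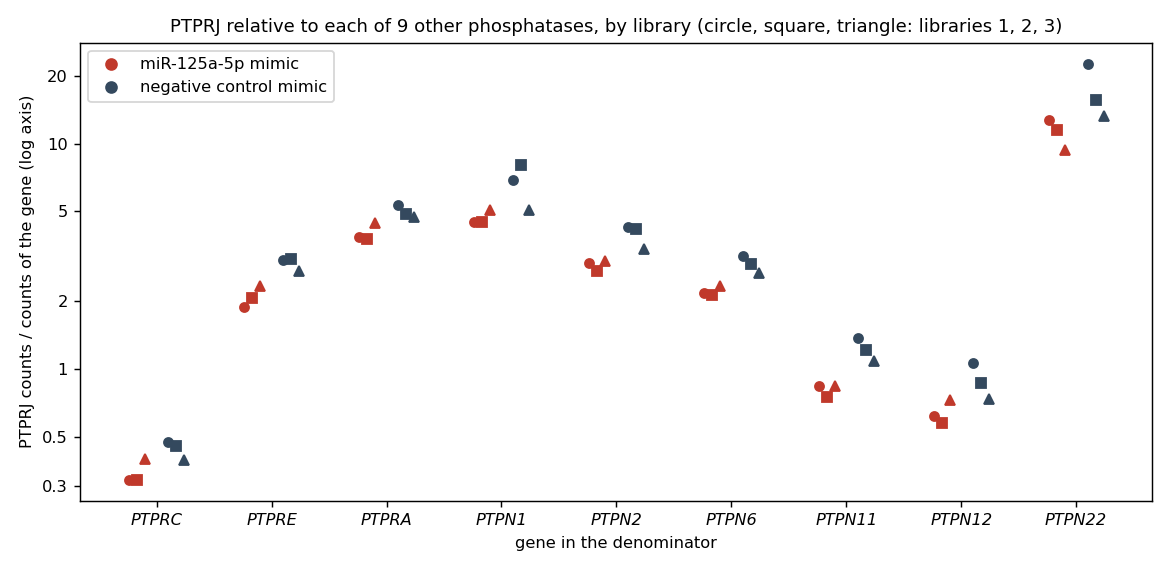
Reads of PTPRJ divided by reads of each of the other 9 genes in the same library, on a log axis, with miR-125a-5p libraries left of control libraries. The PTPN11 ratio is 0.752 to 0.840 in miR-125a-5p libraries and 1.08 to 1.37 in control libraries, and only the PTPRC ratios overlap.

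Levels of different genes were compared per length, as CPM per kb of the merged exons (RPKM). PTPRC stood highest, at 65.5 ± 4.74 RPKM in miR-125a-5p libraries and 70.5 ± 2.16 RPKM in control libraries (SD, n = 3 each). PTPN12 was next, at 58.5 ± 3.67 and 58.8 ± 6.66 RPKM in miR-125a-5p and control libraries, and overlapped PTPRC in the miR-125a-5p libraries. PTPN11 followed at 36.4 ± 1.37 RPKM in miR-125a-5p libraries and 33.4 ± 1.46 RPKM in control libraries. PTPRJ was the fourth, at 21.5 ± 1.23 RPKM in miR-125a-5p libraries and 29.6 ± 2.18 RPKM in control libraries. It overlapped neither neighbour in either group. In control libraries, though, its highest value, 31.75 RPKM, nearly met the lowest of PTPN11, 31.82 RPKM.

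PTPN6 (18.7 ± 0.321 RPKM in miR-125a-5p libraries and 19.5 ± 0.291 in control libraries) came before PTPRA, PTPN1, PTPRE, PTPN2 and PTPN22. From PTPRA at 11.5 ± 0.490 RPKM in miR-125a-5p libraries and 12.8 ± 0.344 in control libraries to PTPN2 at 8.23 ± 0.213 and 8.33 ± 0.541, each neighbour overlapped the next in control libraries, so their order is not settled. PTPN22 was lowest, at 4.18 ± 0.876 RPKM in miR-125a-5p libraries and 3.81 ± 0.733 in control libraries, below all others. The order by mean was the same in both groups. It depended on the length used: with the longest transcript of each gene 3 of the 10 kept their place, with PTPRC and PTPN12 first, PTPN22 last, and PTPN6 (38.8 and 40.4 RPKM in miR-125a-5p and control libraries) ahead of PTPRJ (26.4 and 36.3 RPKM).

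Of the summed RPKM of the 10 genes, PTPRC and PTPN12 held the largest shares. The share of PTPRJ was 8.58%, 8.26% and 9.62% in miR-125a-5p libraries, against 12.8%, 11.7% and 10.3% in control libraries. The groups did not overlap, and control library 3 was the nearest to the miR-125a-5p values. The PTPN11 share was 14.0%, 15.0% and 15.7% in miR-125a-5p libraries, against 12.8%, 13.3% and 13.0% in control libraries. A smaller share of PTPRJ raises the other shares by construction.

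The human classical tyrosine phosphatases number 37 in the list used, and the other 27 give the members' context. Of those 27, 18 had enough counts to be tested, and PTPRT and PTPRZ1 had 0 counts in all 6 libraries, which allows up to 0.0557 CPM. With the merged exons as length, the only length shown for them, none of the 18 stood above PTPRJ in control libraries. The nearest were PTPN7, a leukocyte phosphatase of MAP kinases, at 26.7 ± 2.02 RPKM in miR-125a-5p libraries and 25.4 ± 3.29 RPKM in control libraries, and PTPN18 at 22.6 ± 1.72 and 23.0 ± 4.58 RPKM. In the miR-125a-5p libraries the means of both were above that of PTPRJ. The 10 members held 68.3% to 71.8% of the per-length level of the 28 tested in miR-125a-5p libraries and 69.7% to 72.0% in control libraries.

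**Figure D4:**
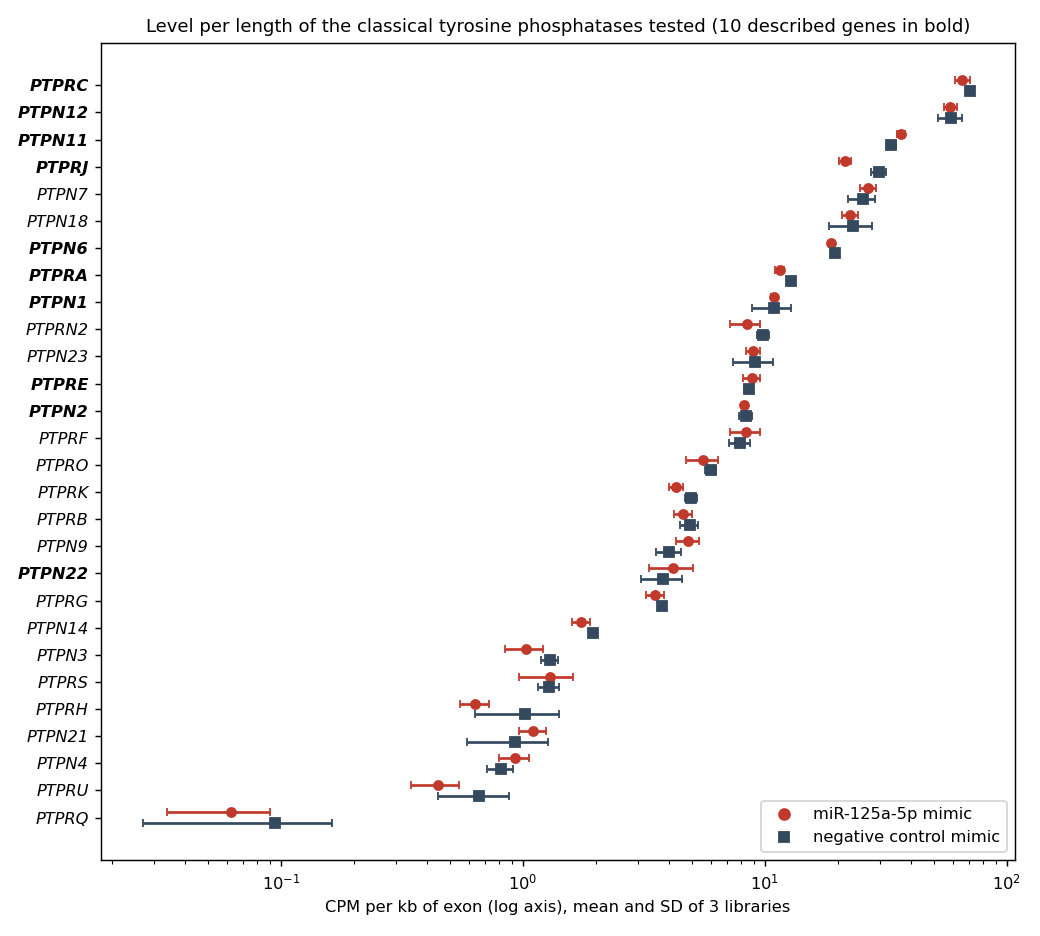
Level of the 28 tested classical tyrosine phosphatases in CPM per kb of exon on a log axis, mean and SD of 3 libraries, with the miR-125a-5p mimic drawn above the negative control mimic in each row and the 10 described genes in bold. PTPRC is highest at 65.5 and 70.5 RPKM in miR-125a-5p and control libraries, and PTPRJ is at 21.5 and 29.6 RPKM.

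By edgeR 0 of the 18 were called in either direction, 0 had an unadjusted p under 0.05, and DESeq2 and limma voom also called 0. Their median log2 fold change was -0.09, and 12 of 18 were negative, against 49.8% of all genes. The 8 with the highest CPM, an order that is not per length, were PTPN7 (log2 fold change 0.08), PTPN18 (-0.03), PTPRF (0.07), PTPRB (-0.09), PTPN23 (-0.02), PTPRG (-0.09), PTPRN2 (-0.23) and PTPRO (-0.10). PTPRH, PTPRQ and PTPRU had lower values than PTPRJ, at -0.67 (SE 0.38), -0.63 (SE 0.66) and -0.57 (SE 0.37). These 3 had only 2 to 56 reads per library, and were named after their values were seen.

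Seed matches were spread over the family. Of the 18 others 10 had a 7- or 8-base match in the longest 3′ UTR, against 24.3% of all searched genes. Of these, 4 had at least 2, as PTPRJ did. These 4 were PTPRB, the only classical gene tested with an 8mer there, PTPRN2, PTPN14 and PTPN18. Their log2 fold changes were -0.09, -0.23, -0.16 and -0.03, against -0.46 for PTPRJ, which was chosen with its value known. Over all searched genes, the median by best match was -0.06 (8mer), -0.03 (7mer-m8), -0.01 (7mer-A1), 0.01 (6mer) and 0.01 (none). PTPN14 lies outside the naming rule and was named after its values were seen. At least 2 matches of 7 or 8 bases were found in 10.1% of all searched genes. The 3′ UTRs of the searched genes had a median of 1366 bases, against 3479 in PTPRJ. Those of PTPRB, PTPRN2, PTPN14 and PTPN18 had 5623, 1658, 9226 and 2185 bases. Whether length accounts for these matches was not tested.

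Genes that act with these phosphatases were read from 5 further lists, of kinases, inhibitory receptors, growth factor and cytokine receptors, downstream adaptors, and ligands. With the other classical phosphatases they held 132 genes, of which 110 were tested, and edgeR, DESeq2 and limma voom each called 0 of them. At an unadjusted p under 0.05 by edgeR, 8 were lower and 3 higher, against 3.22% and 2.69% of all genes. The lists were written with earlier results known, so these counts are descriptions.

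The SRC-family and other leukocyte tyrosine kinases are the opponents and the substrates of the members. Of 23 listed 19 were tested, 13 with a negative log2 fold change and a median of -0.09. LYN, a SRC-family kinase of myeloid cells, had 209, 176 and 190 CPM in miR-125a-5p libraries, against 248, 232 and 211 CPM in control libraries. Its groups did not overlap, but by edgeR its log2 fold change of -0.27 (SE 0.10) had an adjusted p of 0.655. SYK and PTK2B, the most abundant of the other kinases, had log2 fold changes of 0.06 (SE 0.09) and -0.01 (SE 0.10), with overlapping groups.

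Inhibitory receptors that recruit SHP-1 and SHP-2 through phosphorylated tyrosine motifs had 20 of 22 tested, 16 with a negative log2 fold change and a median of -0.16. The abundant PECAM1, LILRB4 and SIRPA, which binds CD47, had values of -0.04 (SE 0.09), 0.03 (SE 0.10) and -0.08 (SE 0.10), all with overlapping groups. The smallest p was that of CLEC12A, a myeloid lectin, at 14.1, 20.1 and 19.2 CPM in miR-125a-5p libraries, against 10.4, 13.7 and 13.4 CPM in control libraries. Its log2 fold change was 0.51 (SE 0.20, edgeR adjusted p = 0.681), so it had the opposite sign to most of its list.

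Among receptors on which tyrosine phosphatases act, 16 of 21 were tested, 11 with a negative value and a median of -0.10. Groups did not overlap in 5 lower and 1 higher of the 16, against 5.9% and 5.31% of all genes. The same counts, lower and higher, were 2 and 0 of 18 for the other classical phosphatases, 1 and 0 of 19 for the kinases, 2 and 1 of 20 for the inhibitory receptors, 3 and 2 of 30 for the adaptors and transcription factors, and 0 and 0 of 8 for the ligands and partners. CSF1R, the receptor of the macrophage growth factor, had 697, 735 and 679 CPM in miR-125a-5p libraries, against 777, 851 and 747 CPM in control libraries, with a log2 fold change of -0.17 (SE 0.09, edgeR adjusted p = 0.843). AXL and MERTK, receptors that bind dying cells through bridging proteins, had -0.26 (SE 0.10) and -0.39 (SE 0.15), with edgeR adjusted p of 0.686 and 0.670. AXL was highest in control library 1, at 419 CPM, and its value was -0.14 without that library. IL6ST, the shared receptor chain of the IL-6 family, had -0.13 (SE 0.10).

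Downstream, 30 of 31 adaptors and transcription factors were tested, 22 with a negative value and a median of -0.06. STAT2, a transcription factor of interferon signalling, had a log2 fold change of -0.11 (SE 0.09), and CBL, a ubiquitin ligase of tyrosine kinases, 0.09 (SE 0.08). Its relative CBLB had 23.5, 20.5 and 22.8 CPM in miR-125a-5p libraries, against 29.5, 29.7 and 27.6 CPM in control libraries. The groups did not overlap, and the log2 fold change was -0.38 (SE 0.15, edgeR adjusted p = 0.685).

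Ligands and partners of the receptor members had 8 of 9 tested, 2 negative and a median of 0.02. LGALS9, a galectin that binds surface sugars, CTNNB1, the beta-catenin of cell junctions, and the adaptor GRB2 had 0.01 (SE 0.09), 0.10 (SE 0.09) and 0.03 (SE 0.09), with overlapping groups.

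**Figure D5:**
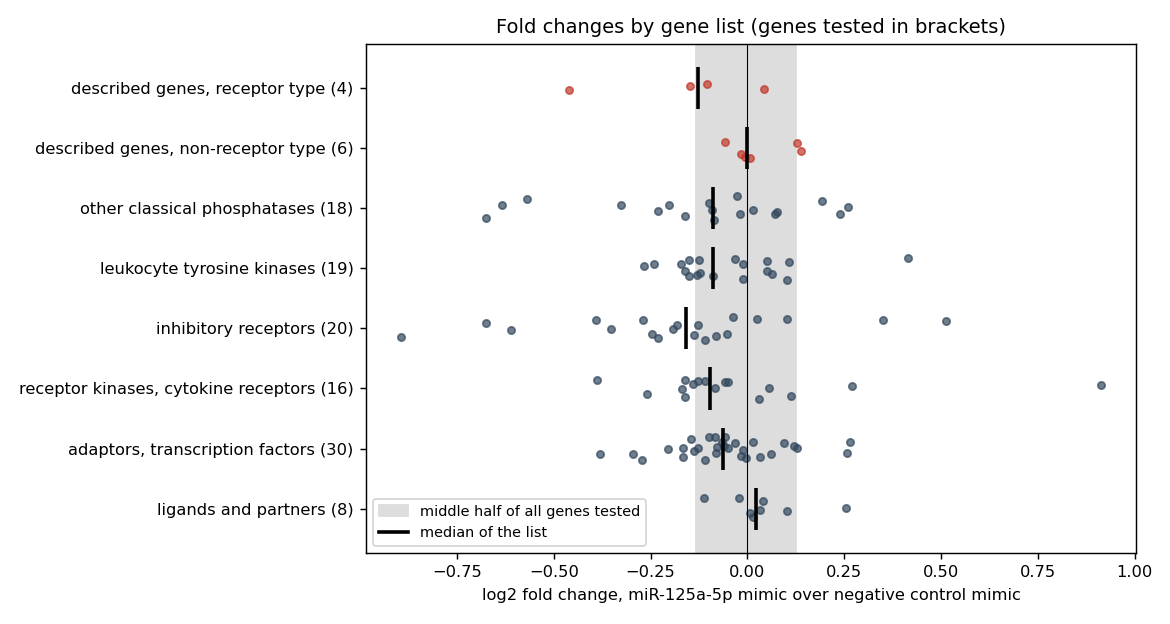
log2 fold changes, miR-125a-5p mimic over negative control mimic, of each tested gene by list (points), with the median of each list as a vertical line and the middle range of all genes, from the lower to the upper quartile, in grey. PTPRJ is the point at -0.46 in the top row, and list medians lie between -0.16 and 0.02 for the 6 lists of other genes.

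The likeness of other genes to PTPRJ was measured by Pearson's r of log2 CPM over the 6 libraries, among 11597 genes with a mean of at least 5 CPM, as a description of libraries that share a treatment and a line. The highest were RAB8B, a small GTPase of vesicle transport, at 0.99, SLC38A7, a lysosomal amino acid transporter, at 0.98, and CLP1, an RNA kinase, at 0.98. RAB8B had 110, 106 and 113 CPM in miR-125a-5p libraries, against 128, 129 and 124 CPM in control libraries. The lowest was FASTKD2, a mitochondrial RNA-binding protein, at -0.99, with 33.8, 34.0 and 31.5 CPM in miR-125a-5p libraries and 24.8, 27.0 and 28.5 CPM in control libraries. In all, 117 genes, 1.01% of those compared, had r above 0.9. With 1 library left out, 0 or 1 of the first 3 genes stayed among the first 3. Among the members, r with PTPRJ was 0.81 for PTPRA, 0.75 for PTPN6 and -0.85 for PTPN11, and between -0.31 and 0.45 for the other 6.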

How the data were processed

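RNA of 6 THP-1 libraries was measured as raw counts per gene, which the authors deposited as 1 table with no normalization. The submitters' processing notes name hg19, TopHat, bcl2fastq and edgeR. The counter, its annotation and its strand setting were not given in the sources used here, so reads of overlapping genes cannot be told apart. Gene identifiers were matched to RefSeq symbols (GRCh38.p14, names only) for 99.46% of rows. The members and lists were chosen with earlier results of these data known.

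Of 21274 genes with any count, filterByExpr kept 14731. Library sizes were adjusted by TMM and genes tested with edgeR 4.0.16 (glmQLFit, glmQLFTest, package default) in R 4.3.3, with Benjamini-Hochberg adjustment. An SE is the size of the log2 fold change divided by the square root of F. The variance behind F is moderated over all genes, so an SE can differ from the spread of that gene's own libraries. CPM use the scaled library sizes, marker sums the raw totals. Likeness used log2 CPM with a prior count of 2. Lengths and 3′ UTRs of at least 20 bases came from GENCODE 29 on GRCh38. Steps were tested on simulated data. The fold changes simulated for edgeR were larger than that of any member, so recovery of changes as small as the members' was not tested. Intervals for a count of 0 (up to 3 counts over all libraries) cover counting error only.

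Replicate libraries were not alike within sampling noise, so all 6 were counted. Alternatives were other scalings, no count filter, DESeq2 1.42.0, limma 3.58.1 voom, each library left out and the replicate number as a block. Named genes were all 10 members, the 8 most abundant other classical phosphatases, the 3 most abundant and the smallest p of each other list, and the 3 most and 1 least like PTPRJ. Other names are stated as such. A named gene of 1 list and markers of 1 cell type are not reported here.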

Additional observations from a re-analysis of the deposited data

How the results depend on the processing

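The median log2 fold change of all genes moved by less than 0.01 under every scaling. Without a count filter 11 genes were called higher and 41 lower, by DESeq2 2 and 11, and with the replicate block 0 and 9. With 1 library left out 0 to 2 were called higher and 3 to 14 lower. The number of members called was 1, PTPRJ, without a count filter, by DESeq2 and with the replicate block, and 0 to 1 with 1 library left out, the 1 being PTPRJ without control library 3. It was 0 under both other scalings and limma voom. As PTPRJ was chosen with its value known, these counts show only how the call depends on the setting. The log2 fold change of PTPRJ was -0.51 to -0.41 in every one of the 12 fits. No clear pairing by replicate number was seen. Deviations of same-numbered libraries correlated at 0.056, 0.014 and -0.016, the first being the highest of any pair. Not every library correlated best with its own number. With 3 libraries per group, such small correlations cannot exclude a pairing. All 120 alternative values of the members moved by less than the SD between libraries, and 10 changed sign, in PTPN1, PTPN2, PTPN12, PTPN22 and PTPRE. In PTPN22, at 0.14 with all libraries, the sign turned without control library 1 (-0.02) and without miR-125a-5p library 3 (-0.05). With the longest transcript as length 3 members kept their rank. In the coding sequence 5 members had a 7- or 8-base match. By Spearman's rho 1 of the 3 genes most like PTPRJ stayed among the first 3, and 0 to 1 did with 1 library left out. The other listed genes had 0 calls in all of these fits. Depth limits PTPN22 most, at 137 to 195 reads per library.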
